A study of Rattus norvegicus with 19 samples.

Results

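Fos and the enhancer-like elements around it were followed by total RNA-seq in rat neuron cultures. Every transcriptionally active putative enhancer (TAPE, an intergenic stretch of open chromatin with RNA reads on both strands) that the deposited table paired with Fos was taken, which gave 19 of 27538 TAPEs. A pair was made when the start site of the gene lay within 1 Mb of the TAPE centre. The rule uses no measured value. Primary neurons of embryonic day 18 Sprague-Dawley rats were grown from cortex, hippocampus or striatum and kept in culture for 11 days. They then received vehicle (neurobasal medium) or potassium chloride (KCl), a depolarizing stimulus, for 1 h. The 19 libraries formed 6 groups by their titles, 3 libraries per group and 4 in striatum vehicle. Sources conflict on the KCl concentration, with 25 mM in the protocol label and 10 mM in the design text. Cultures hold all the cell types of the dissected tissue that survive in vitro, and in such bulk samples fewer cells of a type and less RNA per cell cannot be told apart.

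Fos encodes a leucine zipper protein that pairs with Jun proteins to form the transcription factor AP-1. Its mRNA is nearly absent from resting neurons and is made within minutes of depolarization, when calcium entry activates the factors SRF, with its partner Elk1, and CREB at the promoter and at distant enhancers. Active enhancers are themselves transcribed, and the products are called enhancer RNAs (eRNAs). The study wrote TAPE levels as CPKM, reads per kilobase of TAPE, scaled by the total reads of the library (RPKM).

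Library totals worked back from the CPKM values, with the smallest step taken as 1 read, were 46.4 to 72.5 M reads. The protocol label gives 12.6 to 20.4 M reads per sample, and the source of the gap was not tested. No pair of libraries was identical, and all 19 resembled most the region that their title names. That included cortex vehicle replicate 3, whose tissue label reads striatal, with an r of 0.833 with the other cortex libraries against 0.511 with striatum. Of the markers whose profile could be solved, 5 of 5 cortex and 8 of 8 striatum genes were highest in their own region, against 2 of 4 hippocampus genes. Profiles have no absolute scale, so the level of glial or other markers could not be given. Astrocyte markers were highest in hippocampus for 3 of 5 genes and in cortex for the other 2, and their part in the regional results was not tested.

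On the Rn6 assembly Fos lay on the plus strand at chr6:109300433-109303299. Of its 19 TAPEs, 7 lay upstream and 12 downstream. In all, 7 lay within 100 kb of the start site, 7 between 100 and 250 kb, and 5 farther away. The deposited orientation column called the TAPEs before Fos "Downstream", because it states where the gene lies from the TAPE. Upstream and downstream are used here from the viewpoint of Fos. TAPE lengths ran from 1276 to 3756 bp.

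The study aimed CRISPR guides at 3 of these elements, and the guide positions in its design table fell inside 3 TAPEs. The enhancer-1 guide (chromosome 6, position 109262269) fell in the TAPE centred 37.8 kb upstream (chr6:109261263-109264039). The enhancer-2 guide (position 109281666) fell in the TAPE 18.5 kb upstream (chr6:109280836-109283088). The enhancer-3 guide (position 109312925) fell in the TAPE 13.4 kb downstream (chr6:109311940-109315695). These 3 are called the enhancer-1, enhancer-2 and enhancer-3 TAPEs. The guide sequences are shown because they fix which element each name means. The promoter guide (position 109299229) lay in none of the TAPEs. The table gave no strand for the guides, and letters are 5′ to 3′.

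Fos enhancer1 guide: gaggagactaactgagcagc
Fos enhancer2 guide: gcctgttgtcatgactgccg
Fos enhancer3 guide: gggtgggggcctctgacggg
Fos promoter guide: ggccacggctcttggggagc

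The RNA of enhancer-1, eRNA1, was also given as a stretch of 300 nt from which the study made guide-linked RNAs, and an antisense oligonucleotide (ASO) was designed against it. The stretch is shown because it holds the target of the ASO and the PCR product used for eRNA1. Capitals mark bases 68 to 87, the 20 bases complementary to the ASO. The PCR product used for eRNA1 covered bases 1 to 148, which the primer positions in the design table place at chr6:109261740-109261887, inside the enhancer-1 TAPE. The strand was not stated there.

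Fos eRNA1 300 nt: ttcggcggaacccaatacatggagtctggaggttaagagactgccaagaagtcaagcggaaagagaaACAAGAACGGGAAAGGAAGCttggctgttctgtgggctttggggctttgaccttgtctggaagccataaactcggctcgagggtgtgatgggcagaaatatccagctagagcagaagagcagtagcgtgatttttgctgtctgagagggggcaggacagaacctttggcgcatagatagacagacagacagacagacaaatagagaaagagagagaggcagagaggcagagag
Fos eRNA1 ASO: gcuucctttcccgttcuugu
Fos eRNA3 150 nt: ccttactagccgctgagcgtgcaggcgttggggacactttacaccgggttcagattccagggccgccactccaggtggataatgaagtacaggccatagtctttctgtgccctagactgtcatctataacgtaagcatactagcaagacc

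Neither RNA held the AP-1 motif TGANTCA or the cAMP response element TGACGTCA, searched on both strands. In RefSeq promoters of GRCr8, windows of 300 bases that each cover one gene start, 7.3% of 33469 held the first motif and 1.8% the second. In the first 150 bases of those windows the shares were 3.9% and 0.5%. These stretches are parts of their TAPEs, and the rest of the TAPE sequence was not searched.

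Reads were concentrated in few of the 19 TAPEs. They held 2136 reads over all libraries, of which 67.93% lay in the enhancer-1, enhancer-2 and enhancer-3 TAPEs. A mean of at least 0.05 CPKM, the minimum for a test, was reached by 5 TAPEs: these 3, one 488.1 kb upstream (chr6:108811612-108813000) and one 208.9 kb downstream (chr6:109508606-109510099). The 5 held 86.28% of the reads. The other 14, 4 upstream and 10 downstream, held 6 to 59 reads each with a median of 17.5, and were left out of the main tests. With all 27538 TAPEs tested, none of the 14 passed for KCl over all regions in limma (0 at an unadjusted p under 0.05). For region 1 of the 14 passed, against 2026 of all 27538, so the 14 did not exceed the share over all TAPEs. It was the TAPE 159.8 kb downstream (F of 9.54, limma adjusted p = 0.00768), with 4 reads in cortex, 19 in hippocampus and 31 in striatum. Mates of a fragment were mostly counted separately, so 2 reads are often 1 fragment.

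**Figure D1:**
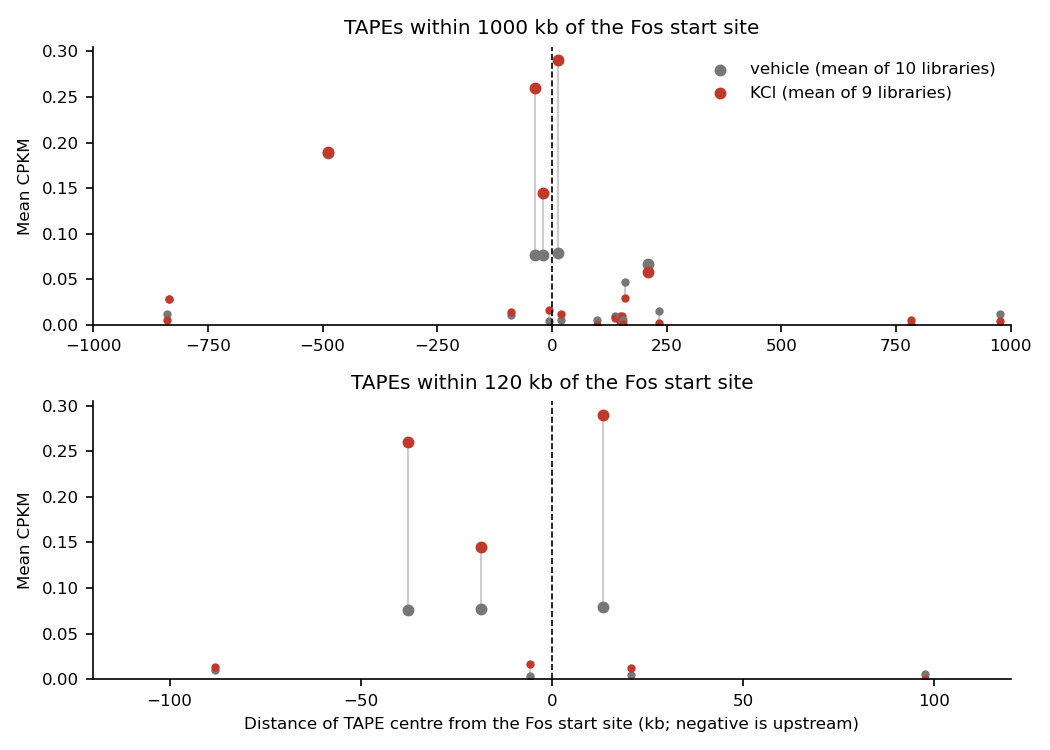
Mean CPKM of each TAPE in the 10 vehicle (grey) and 9 KCl (red) libraries against its distance in kb from the Fos start site, with the whole 1 Mb on each side above and the nearest 120 kb below. Large points are the 5 tested TAPEs. The enhancer-1 and enhancer-3 TAPEs stand highest with KCl, at 0.260 and 0.290 CPKM, against 0.0761 and 0.0792 with vehicle.

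The enhancer-3 TAPE, the nearest tested element, was higher after KCl in every region. In cortex it held 0.0512, 0.0477 and 0.0712 CPKM with vehicle and 0.338, 0.309 and 0.249 with KCl. In hippocampus the values were 0.0942, 0.142 and 0.0386 with vehicle and 0.284, 0.183 and 0.177 with KCl. In striatum they were 0.0469, 0.0751, 0.119 and 0.106 with vehicle and 0.297, 0.398 and 0.378 with KCl. The vehicle and KCl values did not overlap in any region. Mean CPKM with KCl was 5.27 times that with vehicle in cortex, 2.35 times in hippocampus and 4.12 times in striatum.

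The enhancer-1 TAPE also rose, from a level that depended on the region. In cortex it held 0.0115, 0.00993 and 0.0107 CPKM with vehicle and 0.116, 0.0848 and 0.0842 with KCl. These rest on 6 reads in all with vehicle and 45 with KCl. In hippocampus it held 0.0127, 0 and 0.00652 CPKM with vehicle and 0.0882, 0.0508 and 0.0360 with KCl. That is 3 reads against 28, a ratio of read rates of 9.12 with a 95% exact interval of 2.82 to 46.9. The interval takes each read as independent, though mates were mostly counted separately, so it is too narrow even for counting error. In striatum the vehicle values were already 0.222, 0.152, 0.168 and 0.168 CPKM, above the KCl values of both other regions, and KCl gave 0.564, 0.684 and 0.635. The treatments did not overlap in any of the 3 regions.

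At the enhancer-2 TAPE the treatments separated in 1 of the 3 regions. In cortex it held 0.0854, 0.0490 and 0.0527 CPKM with vehicle and 0.0956, 0.0523 and 0.0130 with KCl, so the groups overlapped. In hippocampus the values were 0.0471, 0.0306 and 0.0643 against 0.0621, 0.117 and 0.126, with the lowest KCl library inside the vehicle range. In striatum they were 0.117, 0.0984, 0.146 and 0.0767 against 0.260, 0.254 and 0.323, with no overlap. The ratio of means in striatum was 2.55.

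**Figure D2:**
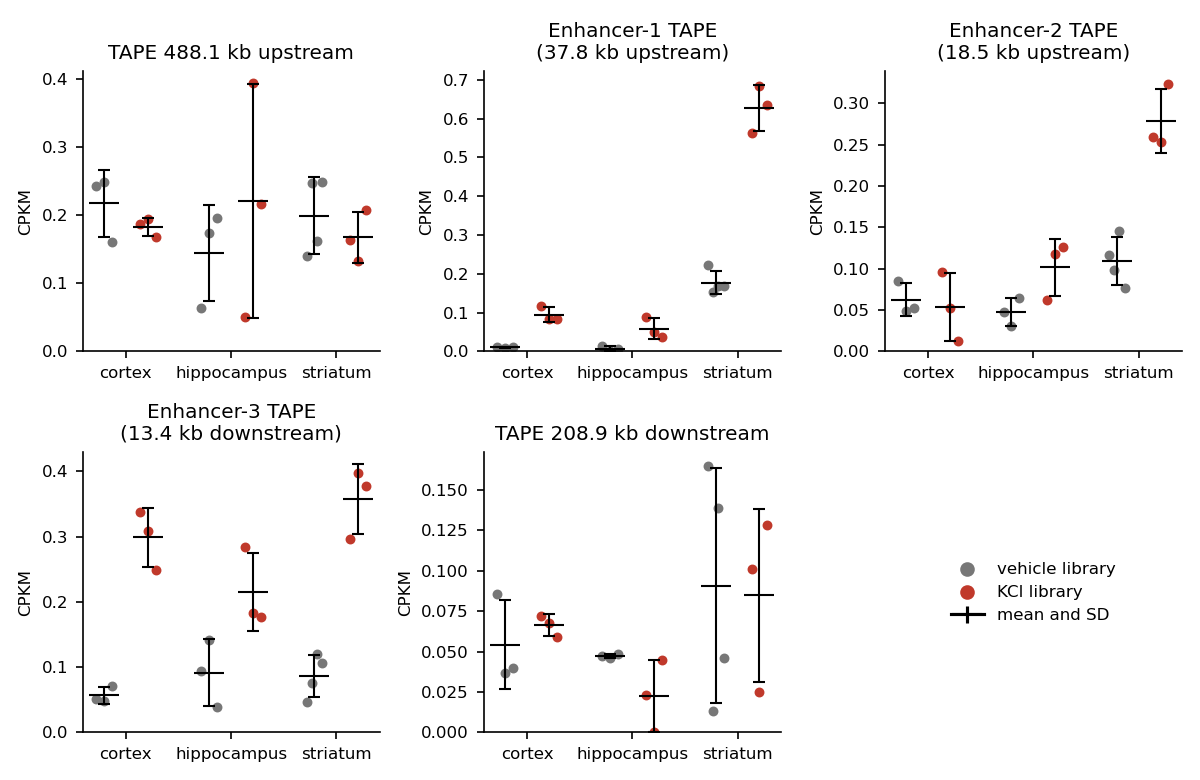
CPKM of the 5 tested TAPEs in each library (points), with the mean and SD of each group (black), for vehicle (grey) and KCl (red) in the 3 regions. The enhancer-1 and enhancer-3 TAPEs separate the treatments in every region, the enhancer-2 TAPE only in striatum among the 3 regions. The 2 distant TAPEs show treatments that overlap, except for the TAPE 208.9 kb downstream in hippocampus. There KCl was lower on 6 against 12 reads, and the share of all TAPEs that do so was not counted.

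Among the 5 tested TAPEs, KCl lay above vehicle without overlap for 2 in cortex, 2 in hippocampus and 3 in striatum. In cortex 5.88% of all 1870 tested TAPEs did so, against 4.01% for hippocampus and 3.32% for striatum.

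KCl was compared with vehicle in limma on log2(CPKM + 0.05), fitted to all 1870 TAPEs and adjusted over all of them. This scale understates the change of low TAPEs. In cortex 1 of the 5 was called higher, the enhancer-3 TAPE, with a log2 change of 1.71 ± 0.28 (SE, adjusted p = 0.00676), against 0.321% of all tested TAPEs. The enhancer-1 TAPE had a log2 change of 1.25 ± 0.31 (adjusted p = 0.117) and the enhancer-2 TAPE one of -0.18 ± 0.36 (adjusted p = 0.903). The cortex call was lost without vehicle replicate 2 (log2 change 1.65, adjusted p = 0.0665), KCl replicate 1 (1.63, 0.0772) or KCl replicate 2 (1.68, 0.0868), with the log2 change close to the full value each time. It held without vehicle replicate 3, the library with the conflicting tissue label (log2 change 1.80, adjusted p = 0.0124).

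In striatum 2 of the 5 were called higher, against 0.802% of all. The enhancer-1 TAPE had a log2 change of 1.58 ± 0.19 (adjusted p = 0.00182), the smallest p of the 1870 TAPEs. The enhancer-3 TAPE had one of 1.60 ± 0.26 (adjusted p = 0.0106). The enhancer-2 TAPE reached 1.06 ± 0.24 with an adjusted p of 0.0513. Neither call was kept without KCl replicate 7, where log2 changes were 1.57 for enhancer-1 (adjusted p = 0.0561) and 1.56 for enhancer-3 (adjusted p = 0.110) and limma called 0 of the 1870 TAPEs, with 237 at an unadjusted p under 0.05. The enhancer-3 call was also lost without vehicle replicate 4 (1.57, 0.0589) or KCl replicate 5 (1.53, 0.118).

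In hippocampus none of the 5 was called by limma, where 0.0535% of all TAPEs were called higher. Log2 changes were 0.92 ± 0.25 for enhancer-1 (unadjusted p = 0.00513, adjusted p = 0.192), 0.95 ± 0.33 for enhancer-3 (unadjusted p = 0.0194, adjusted p = 0.333) and 0.63 ± 0.31 for enhancer-2 (adjusted p = 0.416). Of the 5 TAPEs, 2 had an unadjusted p under 0.05, against 13.3% of all tested TAPEs, and voom on recovered reads also called 0.

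Over all 19 libraries, with region in the model, 2 of the 5 were called higher, against 1.66% of all TAPEs. Enhancer-3 changed by 1.43 ± 0.17 on the log2 scale (adjusted p = 1.88e-06) and enhancer-1 by 1.26 ± 0.16 (adjusted p = 3.26e-06). They stood at rank 2 and rank 3 of the 1870 TAPEs by p. Enhancer-2 had a log2 change of 0.53 ± 0.20 (adjusted p = 0.0945). The median change of all tested TAPEs was -0.13 in this fit.

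The 2 distant TAPEs passed no KCl test. The TAPE 488.1 kb upstream, the most transcribed of the 19 by mean CPKM (0.189), had log2 changes of -0.18 ± 0.26 in cortex, 0.31 ± 0.53 in hippocampus and -0.18 ± 0.25 in striatum. The TAPE 208.9 kb downstream had log2 changes of 0.19 ± 0.33, -0.47 ± 0.28 and 0.01 ± 0.46. Its hippocampus KCl libraries, at 0.0234, 0 and 0.0446 CPKM, lay below the vehicle libraries at 0.0473, 0.0461 and 0.0485, on 6 against 12 reads. The share of all tested TAPEs with KCl below vehicle without overlap was not counted, so no conclusion is drawn from this separation.

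**Figure D3:**
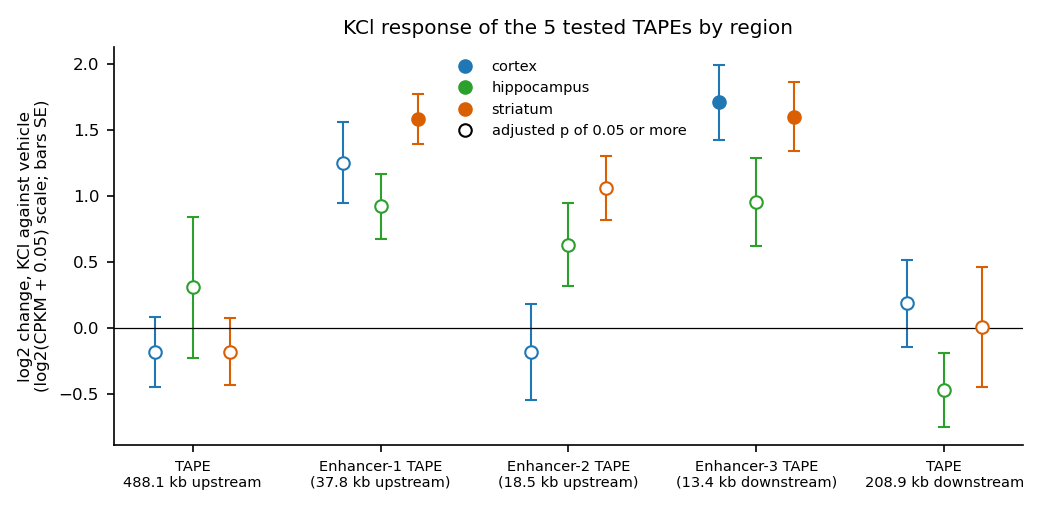
Log2 change of KCl against vehicle on the log2(CPKM + 0.05) scale for the 5 tested TAPEs in cortex, hippocampus and striatum, with SE bars. Filled points passed an adjusted p of 0.05 in limma. Enhancer-3 was called in cortex (1.71) and striatum (1.60), enhancer-1 in striatum (1.58), and the distant TAPEs lie between -0.47 and 0.31.

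Whether KCl acted differently by region was tested as an interaction. None of the 5 passed, where 0.0535% of all TAPEs did. The enhancer-2 TAPE had the smallest p of the 5, with an F of 4.22 (unadjusted p = 0.0245, adjusted p = 0.521). The other 4 had an unadjusted p above 0.05, and 8.24% of all tested TAPEs lay under it. Limma called 0 of the 5 and so did voom on recovered reads. The calls in one region and not in another are therefore not shown to differ between regions.

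Levels differed by region for 2 of the 5 TAPEs. Of all tested TAPEs 48.8% passed the same test, so a regional difference does not set the TAPEs around Fos apart. The enhancer-1 TAPE had an F of 26.9 (adjusted p = 1.70e-06) and the enhancer-2 TAPE one of 9.03 (adjusted p = 0.00279). The enhancer-3 TAPE had an F of 0.16 (adjusted p = 0.882). With vehicle, enhancer-1 was 1.90 ± 0.26 log2 units higher in striatum than in cortex (adjusted p = 2.06e-06) and 2.01 ± 0.26 higher than in hippocampus (adjusted p = 5.40e-07). Of all TAPEs 24.3% and 32.0% passed these contrasts in either direction. With KCl the differences were 2.23 ± 0.27 (adjusted p = 7.94e-07) and 2.67 ± 0.27 (adjusted p = 2.03e-08), against 22.9% and 29.8% of all.

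For enhancer-2 the regional difference was called in KCl libraries but not in vehicle libraries, a split added after the data were seen. Striatum exceeded cortex by 1.74 ± 0.31 log2 units with KCl (adjusted p = 0.000138) and by 0.50 ± 0.29 with vehicle (adjusted p = 0.227). The change in this difference was not called, as the interaction above shows. Cortex and hippocampus did not differ detectably for enhancer-1, with 0.11 ± 0.27 with vehicle (adjusted p = 0.881) and 0.44 ± 0.27 with KCl (adjusted p = 0.348).

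The Fos gene itself was followed through its profile over the 19 libraries. The deposited table holds no gene value per library, but it holds the Pearson r of Fos with 19 TAPEs whose values are known. These equations gave 1 profile, in SD units over the 19 libraries, that returned every deposited r. It has no scale, so ratios of differences can be given but no fold change. In cortex vehicle libraries Fos stood at -0.95, -0.91 and -0.97 and in cortex KCl libraries at 1.00, 0.89 and 0.90. In hippocampus it stood at -0.97, -0.97 and -0.96 with vehicle and at 0.38, 0.31 and 0.35 with KCl. In striatum the vehicle values were -0.79, -0.77, -0.62 and -0.67 and the KCl values were 1.62, 1.55 and 1.58. KCl lay above vehicle in every region, and the KCl groups of the 3 regions did not overlap with each other.

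Averaged over regions, Fos was 1.83 SD higher with KCl (two-sided exact permutation within regions, p = 7.14e-05, the smallest that 14000 arrangements can give). Its adjusted p over the 16120 genes with a solved profile was 0.0018, and 6.25% of those genes were called higher. Striatum rose by 2.29 SD, cortex by 1.87 and hippocampus by 1.31, so that the rise in striatum was 1.75 times that in hippocampus. Region labels permuted within each treatment gave exact p-values of 0.08 for cortex against hippocampus, 0.134 for striatum against cortex and 0.1 for striatum against hippocampus (adjusted p = 0.134 for each of the 3). KCl libraries alone gave an exact permutation p of 0.1 for each pair, the smallest that 20 arrangements can give two-sided. The difference of rises is mostly set by these KCl groups, so the tests cannot decide whether the rises differ. With vehicle, Fos was 0.23 SD higher in striatum than in cortex and 0.25 SD higher than in hippocampus (exact permutation p = 0.0286 for each, the smallest these groups can give).

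**Figure D4:**
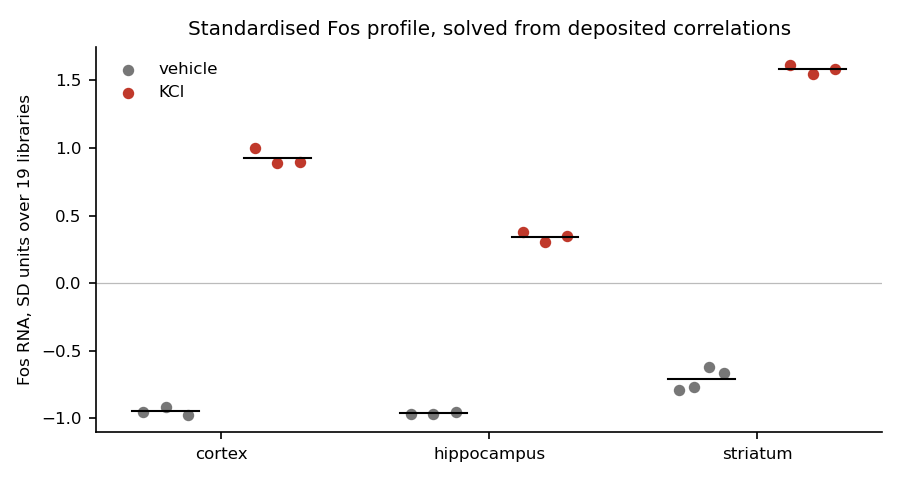
Fos RNA in SD units over the 19 libraries, 1 point per library and a line at each group mean, for vehicle (grey) and KCl (red) libraries of the 3 regions. Vehicle libraries lie between -0.97 and -0.62, and KCl means rise from hippocampus (0.34) over cortex (0.93) to striatum (1.58).

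The rise in CPKM at the TAPEs can be set beside this order. Enhancer-3 rose by 0.242 CPKM in cortex, 0.123 in hippocampus and 0.271 in striatum. Enhancer-1 rose by 0.0844, 0.0519 and 0.450. Enhancer-2 changed by -0.0087, 0.0544 and 0.1695, with cortex lowest. In these CPKM differences enhancer-1 and enhancer-3, but not enhancer-2, had the order of Fos, hippocampus lowest and striatum highest. As ratios the order was another. The ratio of KCl to vehicle read rates for enhancer-1 was lowest in striatum (3.53) and higher in cortex (8.70) and hippocampus (9.12). Their 95% exact intervals overlap, at 2.82 to 4.44, 3.70 to 25.0 and 2.82 to 46.9. Cortex and hippocampus held only 6 and 3 vehicle reads there, so this order is not established. The ratio of means for enhancer-3 was highest in cortex (5.27). With Fos over all 19 libraries, enhancer-3 had an r of 0.948, the highest of any of the 1870 tested TAPEs with Fos. The next TAPE by likeness, on chromosome 10 (chr10:90188422-90190566), had 0.858. Enhancer-1 had an r of 0.703 (rank 15) and enhancer-2 one of 0.636 (rank 26). The TAPE 488.1 kb upstream had -0.05 and the TAPE 208.9 kb downstream 0.08. These correlations include the treatment difference and are given as descriptions over 19 libraries.

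A global r above 0.5 with Fos was held by 3 of the 19 TAPEs, enhancer-1, enhancer-2 and enhancer-3, and over all pairs in the table the share was 5.30%. An r below 0 was held by 11 of the 19. Fos was the nearest gene for 5 TAPEs and the best correlated gene for 3, the TAPE 5.8 kb upstream, enhancer-3 and the TAPE 20.7 kb downstream. For enhancer-1 the best correlated gene was Dlst (r = 0.790), which encodes a subunit of the 2-oxoglutarate dehydrogenase complex, and Fos stood at rank 4 of 30 genes. For enhancer-2 it was Isca2 (r = 0.772), an iron-sulfur cluster assembly factor, with Fos again at rank 4.

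Within a region the deposited r of enhancer-1 stood at 0.978 in cortex, 0.863 in hippocampus and 0.980 in striatum. Those of enhancer-3 were 0.979, 0.812 and 0.969. Those of enhancer-2 were -0.14, 0.761 and 0.950. Each is over the 6 or 7 libraries of both treatments of a region. Within a treatment, KCl libraries fall into 3 clusters by region in Fos, so no pooled r is given. After region means were removed, none of the 10 relations of the 5 TAPEs with Fos passed a permutation test. For enhancer-3 the values were r = 0.28 and rho = 0.17 in 9 KCl libraries (permutation p = 0.53 and 0.70, adjusted p = 0.886 and 0.964) and r = 0.45 and rho = 0.35 in 10 vehicle libraries (permutation p = 0.25 and 0.34, adjusted p = 0.848 and 0.964). Without the 2 libraries farthest from the Fos median, r was 0.16 and 0.03.

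The region correlations of the 14 untested TAPEs rest on few reads, 1 to 31 per region where a value was given. The TAPE 20.7 kb downstream had the highest r of all in hippocampus, 0.999, on 6 reads, with 2 in each KCl library and 0 in each vehicle library. The TAPEs 5.8 kb upstream and 152.5 kb downstream both had an r of 0.433 in cortex, and the cortex reads of each lay in KCl replicate 3 alone. Reads in 1 library only lay behind 11 of the 36 region values of the untested TAPEs. The TAPE 5.8 kb upstream, nearest to the start site, held 4 reads with vehicle and 16 with KCl. The farthest TAPEs, 838.3 kb upstream and 976.0 kb downstream, held 20 and 14 reads, and cortex vehicle replicate 3 held 6 and 7 of these.

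**Figure D5:**
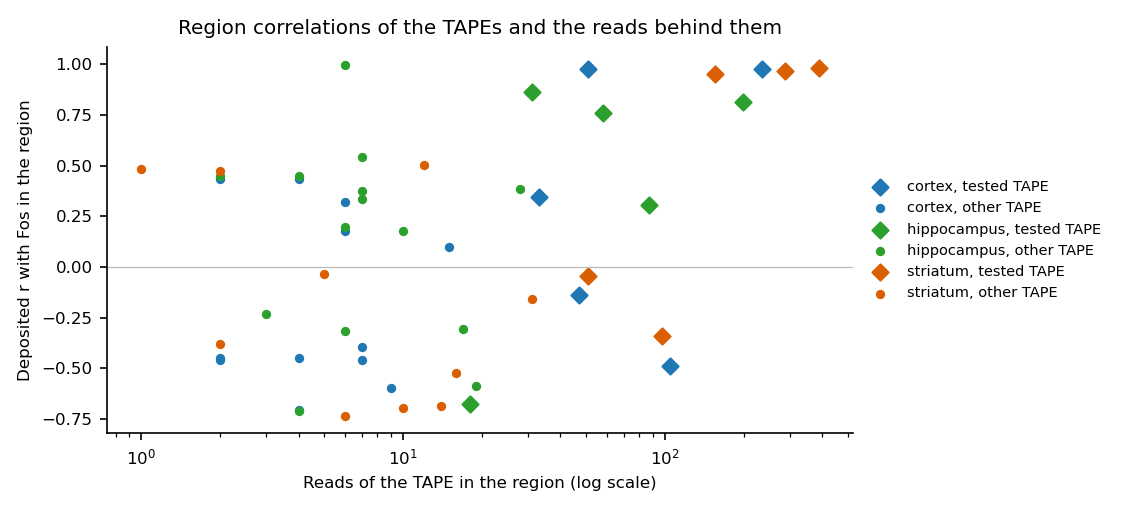
Deposited r of each TAPE with Fos within a region (vertical axis) against the reads of that TAPE in the region (horizontal, log scale), for cortex (blue), hippocampus (green) and striatum (orange). Diamonds are the 5 tested TAPEs. Values from under 20 reads spread from strongly negative to 0.999, and the highest values above 100 reads belong to enhancer-1, enhancer-2 and enhancer-3.

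Other AP-1 genes were set beside Fos, from lists chosen with earlier results of these data known. Of 10 AP-1 family genes, 7 rose with KCl in the gene test, 0 fell and 3 did not pass, against 6.25% of all genes called higher. The 7 were Fosb, Fosl1, Fosl2, Jun, Junb, Jund and Atf3. Fosb and Junb had an r with Fos of 0.994 and 0.985 over the 19 libraries. Batf, Batf3 and Jdp2, 3 further leucine zipper factors, had adjusted p-values of 0.644, 0.621 and 0.587. The mean of Batf was the same -0.33 SD in every group but striatum vehicle (1.25 SD), so its test says little about a KCl response. The median difference of the 10 was 1.68 SD, against -0.15 over all genes.

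All 26 early response genes were called higher, against 6.25% of all genes, with a median difference of 1.62 SD. They include Npas4 and Nr4a1, transcription factors induced by activity, with an r with Fos of 0.989 and 0.985, and Arc, a synaptic regulator, with 0.965. Others did not share the region order of Fos. Bdnf, a neurotrophin, had an r of 0.26 and its KCl level was -0.97 SD in striatum. Of the factors upstream of Fos, 12 of 13 had a profile. Srf rose by 1.72 SD (adjusted p = 0.0018), Creb1 fell by 1.18 SD (adjusted p = 0.00265) and Crtc1, a CREB coactivator, fell by 1.34 SD (adjusted p = 0.00581). The other 9 did not pass, among them Elk1 with an adjusted p of 0.302. Of the 12, 1 was called higher and 2 lower, against 6.25% and 15.5% of all genes, so the list did not stand apart from all genes. These adjusted p-values come from the exact permutation test with Benjamini-Hochberg adjustment over the 16120 genes.

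The 10 genes most like Fos by r over the 19 libraries were Fosb (0.994), Npas4 (0.989), Spty2d1 (0.985), Mir212 (0.985), Junb (0.985), Nr4a1 (0.985), Arf4 (0.981), Arl5b (0.978), Siah2 (0.977) and Impdh2 (0.974). None lay on chromosome 6.

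The genes that share a TAPE with Fos were tested the same way. Of 60 such genes 59 had a profile, 2 were called higher (Irf2bpl and Elmsan1, named after their values were seen), 19 lower and 38 did not pass. Of all genes 6.25% were called higher and 15.5% lower, 21.8% in either direction. The median difference was -0.35 SD. The 5 nearest were Tmed10 (95.4 kb upstream), Nek9 (138 kb upstream), Jdp2 (166 kb downstream), Zc2hc1c (190 kb upstream) and Acyp1 (196 kb upstream). Tmed10, a cargo receptor of the secretory pathway, had a difference of 0.56 SD (adjusted p = 0.0895). Nek9, a mitotic kinase, fell by 0.68 SD (adjusted p = 0.0018). The adjusted p-values of Jdp2, Zc2hc1c and Acyp1 were 0.587, 0.0604 and 0.532, from the same exact permutation test.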

How the data were processed

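RNA was measured in 19 libraries. The study's methods give trimming with Trim Galore (0.4.5 in the submitters' notes), alignment with STAR to Rn6, and counting in SeqMonk. The deposited TAPE values are RPKM, called CPKM by the authors, and the deposited correlations are a score from -1 to 1, the Pearson r of TAPE with gene CPKM. CPKM multiplied by length and library total gave whole reads (tolerance 0.01 reads) for 100.0% of values in every library. Column names are sample titles, and the distance column equals TAPE centre to gene start for 19 of 19 pairs.

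KCl and region tests used limma 3.58.1 in R 4.3.3 (eBayes with trend, two-sided, Benjamini-Hochberg) on log2(CPKM + 0.05) for the 1870 TAPEs with a mean of at least 0.05 CPKM. The within-region fits used only that region's libraries. Gene profiles were solved by least squares in Python 3.11.15 with numpy 2.4.6, from global correlations alone or, for 5149 genes, with the region correlations as well. Both ways could be run for 10041 genes and differed by at most 1.4e-10. Of 17715 genes, 16120 had a profile. Both procedures were tested on simulated data. Correlations used 100000 permutations.

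The members and gene lists were chosen with earlier results of these data known. Named TAPEs were those with a mean of at least 0.05 CPKM, those holding a guide, and the nearest and farthest on each side. Named genes were Fos, the lists, the 5 nearest neighbours and the 10 most alike. The study describes biological replicates per region and condition, with no label tying libraries to cultures. Reads were not corrected for PCR duplicates or for mates counted separately. Intervals take each read as independent, so they are too narrow even for counting error.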

Additional observations from a re-analysis of the deposited data

How the results depend on the processing

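Main counts of called TAPEs around Fos were 1 in cortex, 0 in hippocampus, 2 in striatum and 2 over all regions for KCl, 0 for the interaction and 2 for region. With no filter on low TAPEs the cortex and striatum counts were 0 each, with 27538 TAPEs tested. One fit of 6 groups gave 2 in cortex. With the replicate block the cortex count was 0 (enhancer-3 adjusted p = 0.0665). The region count was 2 there as well but held another TAPE: enhancer-2 lost its call (F of 4.02, adjusted p = 0.0853) and the TAPE 208.9 kb downstream gained one (F of 5.35, adjusted p = 0.0412). That region fit took each library number as 1 block across regions. Striatum vehicle replicates 4, 6 and 8 and KCl replicates 5 and 7 share their number with no other library. They did not inform the region test there, so no conclusion is drawn from the exchange. With no filter the region count was 3. Same-numbered vehicle and KCl libraries of cortex and of hippocampus did not deviate together (r of deviations from -0.042 to 0.014). Counting noise at low read numbers would also weaken this r, so it does not settle whether the numbers pair samples. Vehicle libraries alone gave 1 TAPE for region. The count of relations with Fos within a treatment was 4 of 10 by Pearson r on pooled values and 0 with region means removed. By rho none of the 10 passed on pooled values (lowest adjusted p = 0.0591, permutation test). The cause of the drop was not tested. Leaving out 1 library gave 0 to 1 in cortex, 0 to 2 in striatum, 2 to 3 over all regions and for region, and 0 in hippocampus and for the interaction. The enhancer-2 TAPE passed in striatum with a pseudocount of 0.2 (adjusted p = 0.0457), a minimum of 0.1 CPKM (0.0358), centred libraries (0.0182) and voom (0.0157), against 0.0513 to begin with. Over all tested TAPEs, calls for KCl numbered 6 in cortex (0 to 12 under the other settings with all libraries), 1 in hippocampus (0 to 19), 23 in striatum (2 to 51) and 128 over all regions (55 to 139), calls for the interaction 1 (1 to 7) and for region 912 (482 to 2026). Centring each library turned the split of higher and lower calls from 1 and 0 to 3 and 1 in hippocampus, from 15 and 8 to 19 and 4 in striatum and from 31 and 97 to 47 and 37 over all regions.

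Signs turned only for uncalled values. The TAPE 208.9 kb downstream changed in striatum by -0.0144 with a pseudocount of 0.2 and by -0.0127 with voom, and over all regions by 0.0434 after centring. The TAPE 488.1 kb upstream changed over all regions by 0.1051 after centring. Without 1 library, ranges were -0.4712 to 0.1335 for enhancer-2 in cortex, -0.1725 to 0.8993 and -0.1784 to 0.1129 for the TAPE 488.1 kb upstream in hippocampus and over all regions, and -0.3185 to 0.3877 and -0.2006 to 0.0212 for the TAPE 208.9 kb downstream in striatum and over all regions. The cause of these was not tested. Enhancer-1 and enhancer-3 kept their sign under every alternative run. The Fos difference ranged from 1.81 to 1.84 SD without 1 library.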

Other observations

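The enhancer-1 and enhancer-3 probe sets for RNA imaging in the design table held 36 and 30 oligonucleotides. Of these, 9 matched the 300 nt of eRNA1 printed above, and 0 matched the 150 nt of eRNA3. The GC content of those stretches was 50.7% and 52.7%.

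Of the 8 striatum markers with a profile, 5 passed the KCl test, against 21.8% of all genes in either direction. Among these, Dlx5 and Drd1 were higher, with differences of 0.51 and 0.37 SD (exact permutation within regions, adjusted p = 0.0018 for each). Foxp1 and Rarb were lower, with differences of -0.21 and -0.11 SD (exact permutation, adjusted p = 0.00824 and 0.00978). Ppp1r1b, a phosphoprotein of striatal projection neurons, had a difference of 0.01 SD (adjusted p = 0.781). The differences are averages over all 3 regions.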
